A study of Mus musculus with 6 samples.

Results

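The 7 genes described here, Gas5, Snhg1, Snhg5, Snhg6, Snhg8, Snhg12 and Snhg15, are hosts of small nucleolar RNAs (snoRNAs) whose spliced transcripts encode no protein. They were chosen by name from the 55471 genes of the count table, and all 7 passed the low-count filter that left 16562 genes to test. RNA was sequenced from primary cortical neurons of wild-type CD1 mouse embryos at embryonic day 15 or just before. All cultures received 2 uM Ara-C, an inhibitor of dividing cells, and lentivirus on day 6, and RNA was harvested on day 11. In the 3 shControl libraries the virus carried a control short hairpin RNA, and in the 3 shOpa1 libraries one against Opa1, the inner mitochondrial membrane fusion GTPase. The hairpin sequences, the number of hairpins and the number of embryos behind each culture are not given in the sources used here. The comparison asks how depletion of Opa1 changes the level of these host transcripts.

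A snoRNA host is transcribed as a long precursor whose introns carry snoRNAs. Splicing releases the introns, from which the snoRNAs are trimmed to guide chemical modification of ribosomal and other RNAs. The joined exons of such noncoding hosts hold only short reading frames, so a ribosome that translates them stops upstream of later exon junctions and the transcript is degraded by nonsense-mediated decay (NMD). Several hosts, Gas5 first among them, are therefore known to accumulate when translation is blocked. Many also start with a pyrimidine-rich 5′TOP tract, the element that couples translation of ribosomal protein mRNAs to growth signals. Translation, decay and transcription were not measured in these libraries, so the name "sensitive to translation" is background and was not tested.

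The starts of the hosts are shown because 5′TOP tracts lie there. RefSeq promoter windows (GRCm38.p6) were available for 6 of the 7 members, all but Snhg6, and the lines give 50 bases before the RefSeq start and 30 bases from it, on the strand of the gene. Capitals mark a pyrimidine run, here a C followed by at least 4 C or T that begins no more than 5 bases before or 10 bases after the start, and a TATA that begins 40 to 20 bases before it. Gas5 has 2 RefSeq starts, and the one shown has 10 annotated transcript starts within 10 bases.
Gas5, chr1:161035116-161035195, plus strand: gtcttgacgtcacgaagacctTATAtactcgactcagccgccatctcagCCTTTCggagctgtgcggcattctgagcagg
Snhg1, chr19:8723437-8723516, plus strand: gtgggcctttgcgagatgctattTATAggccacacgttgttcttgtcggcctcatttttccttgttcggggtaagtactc
Snhg5, chr9:88522868-88522947, minus strand: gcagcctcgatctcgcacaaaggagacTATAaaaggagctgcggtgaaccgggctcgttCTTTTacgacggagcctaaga
Snhg8, chr3:123508307-123508386, minus strand: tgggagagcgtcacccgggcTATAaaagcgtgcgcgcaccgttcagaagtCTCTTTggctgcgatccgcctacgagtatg
Snhg12, chr4:132308628-132308707, plus strand: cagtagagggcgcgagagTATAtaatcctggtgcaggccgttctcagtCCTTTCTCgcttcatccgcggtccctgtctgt
Snhg15, chr11:6528731-6528810, minus strand: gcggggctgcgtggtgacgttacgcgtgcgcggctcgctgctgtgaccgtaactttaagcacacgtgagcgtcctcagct

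Of the 6 windows, 4 held a run by this rule, of 6 bases in Gas5 and Snhg8, 8 in Snhg12 and 5 in Snhg5. Among all 32851 RefSeq windows 24.3% held one. A TATA stood in 5 of the 6 windows, all but Snhg15, against 5.81% of all windows, and 4 held both, against 1.54%. Over the whole windows of 300 bases, TGACG was found on either strand in 4 members, Gas5, Snhg8, Snhg12 and Snhg15, and in 20.8% of all windows. TGATGNAA, searched on both strands, was found in 0 of the 6 and in 3.97% of all windows. These matches are letters in a window and not measured binding sites.

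For each member the GENCODE M21 transcript (GRCm38) with the most exons was taken, leaving out those annotated as retaining introns. These transcripts had between 3 exons (Snhg8) and 12 exons (Gas5) and were 448 to 781 bases long. The reading frame opened by the first AUG was 23 codons in Gas5, 40 in Snhg1, 36 in Snhg5, 53 in Snhg6, 54 in Snhg12 and 35 in Snhg15, and a single codon in Snhg8, where ATG is followed at once by TAG. In all 7 at least 1 exon junction lay more than 50 bases after the stop, from 1 in Snhg6 to 7 in Gas5. By the same rule 72.2% of 9389 other spliced lncRNA genes had such a junction, so the feature is common. Over all spliced transcripts not annotated as retaining introns, the junction was present in 5 of 5 of Gas5 and 2 of 2 of Snhg8. It was present in 3 of 4 of Snhg1, 2 of 3 of Snhg5, 4 of 5 of Snhg6, 9 of 10 of Snhg12 and 3 of 4 of Snhg15. The frames of 3 members are shown to make their shortness visible, with the start and stop codons in capitals.
Gas5 frame, bases 35 to 106 of the spliced transcript: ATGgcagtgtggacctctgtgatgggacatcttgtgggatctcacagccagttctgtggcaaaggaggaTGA
Snhg1 frame, bases 58 to 180: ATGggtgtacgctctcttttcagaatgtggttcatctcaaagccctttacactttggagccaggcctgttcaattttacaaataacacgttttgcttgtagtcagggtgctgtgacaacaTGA
Snhg15 frame, bases 38 to 145: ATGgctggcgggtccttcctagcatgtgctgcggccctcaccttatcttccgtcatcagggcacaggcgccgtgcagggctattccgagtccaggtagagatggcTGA

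The introns of the members' transcripts hold 28 annotated snoRNA gene entries. There are 10 in Gas5, 8 in Snhg1, 5 in Snhg12, 2 in Snhg5 and 1 each in Snhg6, Snhg8 and Snhg15. Snord80 in Gas5 and Snora16a in Snhg12 are each entered 2 times over nearly the same bases. Of the 28 rows in the count table, 27 were at 0 in every library, and Snord87 inside Snhg6 had 1 to 7 counts. The 27 overlap exons that were counted for their hosts, while Snord87 shares 0 exon bases with Snhg6. Such shared bases ran from 3.96% of the counted exon bases in Snhg5 to 20.9% in Snhg1. How reads on shared bases were assigned was not examined. These small RNAs were therefore not measured here, and all values that follow are those of the host genes.

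**Figure D1:**
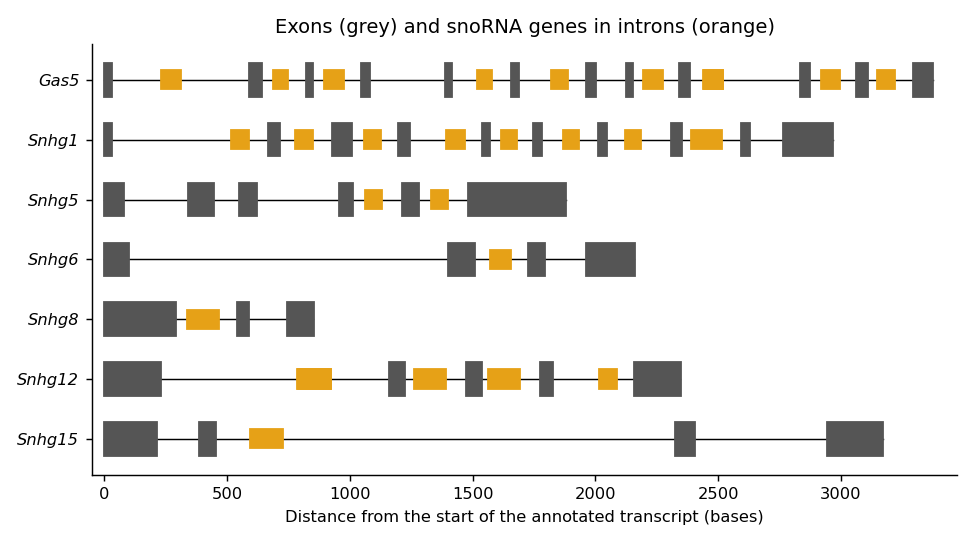
Annotated spliced transcript of each host, with distance in bases from its start on the x axis. Grey boxes are exons, orange boxes are snoRNA genes on the same strand and lines are introns. All 28 annotated snoRNA entries lie in introns of the transcript shown, 10 of them in Gas5, and entries over nearly the same bases are drawn on top of each other.

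The knockdown was visible in every shOpa1 library. Opa1 stood at 202, 205 and 202 CPM (read counts relative to the library total after scaling by the trimmed mean of M values, TMM) in shControl and at 10.2, 8.64 and 8.50 in shOpa1. Library totals ran from 24676709 to 32961580 counts, and the 7 members together gave 4148 to 9503 counts per library. Both libraries numbered 3 lay apart from the other 4 on the second principal component. The summed level of 8 neuronal markers was 7330 to 7810 CPM in shControl and 5070 to 5420 CPM in shOpa1, with 1 called higher and 5 lower. The sum over 7 astrocyte markers was 247, 283 and 418 CPM in shControl and 121, 123 and 186 CPM in shOpa1. Of these markers 1 was called higher and 2 lower. For 7 oligodendrocyte lineage markers the sum was 49.0, 47.1 and 75.5 CPM in shControl and 42.4, 38.4 and 54.7 CPM in shOpa1. For 4 markers of dividing cells it was 0.838, 0.785 and 9.31 CPM in shControl and 1.55, 1.28 and 1.90 CPM in shOpa1. The shControl library 3 was thus the highest of its group for these 3 cell types. The sum over 6 microglial markers was 5.57 to 8.09 CPM and 3.36 to 4.67 CPM, of which Cx3cr1 and P2ry12 were at 0 in at least 1 library. In bulk RNA fewer cells of a type and less RNA per cell cannot be told apart, and the part of these markers in the results was not tested.

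All 7 hosts stood higher in every shOpa1 library than in any shControl library, and 6 of the 7 were called higher, all but Snhg6. Their log2 fold changes, shOpa1 against shControl, ran from 0.41 (Snhg6) to 1.03 (Snhg15) with a median of 0.62, where the median of all 16562 tested genes was -0.01. In the same test 38.9% of all genes were called, 18.9% higher and 20% lower (adjusted p under 0.05, edgeR quasi-likelihood test with Benjamini-Hochberg adjustment). The shOpa1 libraries lay entirely above the shControl libraries for 25.8% of all genes. With the replicate number as a block, which takes libraries of the same number as a pair, 7 of 7 were called higher, against 28.8% of all genes. The authors' deposited table also lists all 7 higher at an adjusted p under 0.05, with log2 fold changes from 0.42 for Snhg6 to 1.03 for Snhg15, where the authors' deposited table lists 20.2% of 19398 genes as higher.

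**Figure D2:**
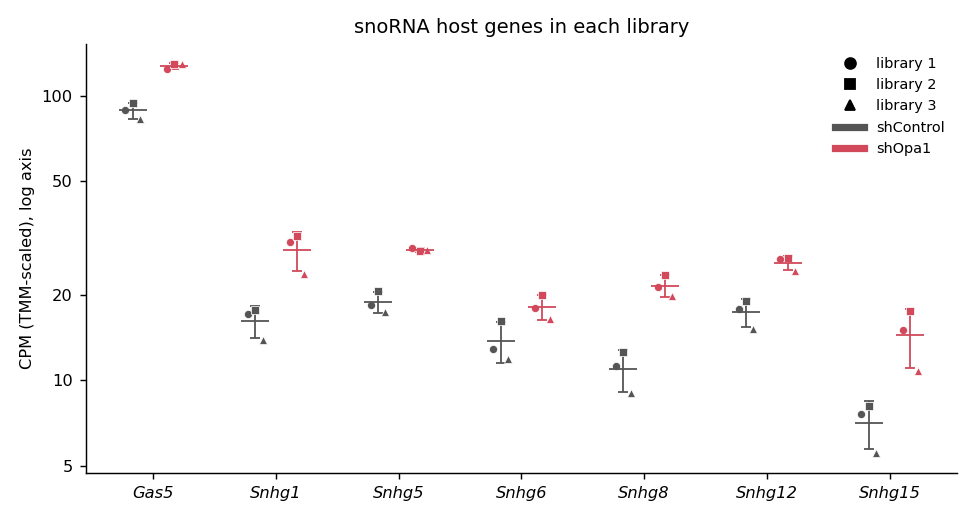
TMM-scaled CPM on a log axis for each host, with 1 point per library, the group mean as a horizontal bar and the SD over 3 libraries as whiskers. The shOpa1 points (red) lie above the shControl points (grey) for every host, with the narrowest gap for Snhg6 at 0.173 CPM.

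Gas5, Snhg1, Snhg5 and Snhg6 carry snoRNAs of the box C/D class, which guide methylation of ribose. Gas5 (ENSMUSG00000053332, chromosome 1, 161034422 to 161038539, plus strand) was named for its accumulation in growth-arrested cells, and its RNA can also bind the glucocorticoid receptor. Its level was 88.9, 94.7 and 82.9 CPM in the shControl libraries and 124, 129 and 129 CPM in the shOpa1 libraries. The groups did not overlap, and the 3 shOpa1 values were close to each other. Gas5 rose 1.43-fold (95% interval 1.29 to 1.6), by 0.52 ± 0.0668 (SE) on the log2 scale (adjusted p = 0.00109, edgeR quasi-likelihood test with Benjamini-Hochberg adjustment). It was the most abundant of the 7 and the called member with the smallest fold change.

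Snhg1 (ENSMUSG00000108414, chromosome 19, 8723475 to 8726443, plus strand) is the host of the U22 snoRNA and of other box C/D snoRNAs. It stood at 17.1, 17.7 and 13.8 CPM in shControl and at 30.5, 32.2 and 23.6 CPM in shOpa1. Within each group the library numbered 3 was the lowest, and the groups did not overlap. The transcript rose 1.78-fold (95% interval 1.40 to 2.26), by 0.83 ± 0.147 (SE) on the log2 scale (adjusted p = 0.00418, edgeR quasi-likelihood test with Benjamini-Hochberg adjustment).

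Snhg5 (ENSMUSG00000097195, chromosome 9, 88495268 to 88523562, minus strand) hosts both copies of the U50 snoRNA, Snord50a and Snord50b, and its counted span is wider than that of its M21 transcripts. Its values were 18.4, 20.5 and 17.3 CPM in shControl and 29.2, 28.5 and 28.6 CPM in shOpa1. The shOpa1 libraries were almost level with each other and all above the shControl libraries. Snhg5 rose 1.53-fold (95% interval 1.33 to 1.76), by 0.62 ± 0.0857 (SE) on the log2 scale (adjusted p = 0.00155, edgeR quasi-likelihood test with Benjamini-Hochberg adjustment).

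Snhg6 (ENSMUSG00000098234, chromosome 1, 9941959 to 9944118, minus strand), host of Snord87, was the member that missed the threshold. It stood at 12.9, 16.2 and 11.9 CPM in shControl and at 18.0, 20 and 16.4 CPM in shOpa1. The groups did not overlap, but the highest shControl and the lowest shOpa1 library were only 0.173 CPM apart. The log2 fold change was 0.41 ± 0.140 (SE), or 1.33-fold (95% interval 1.06 to 1.67), and the adjusted p was 0.0542 by the same edgeR test. With the replicate block the same log2 fold change had an adjusted p of 0.000705, the lowest over the 16 alternatives, of which the highest was 0.171. Libraries of the same number differed by 0.46, 0.30 and 0.45 on the log2 scale for pairs 1, 2 and 3, so shOpa1 was the higher library in each pair.

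Snhg8 and Snhg15 each carry 1 snoRNA of the box H/ACA class, which guides pseudouridylation, Snora24 and Snora9. Snhg8 (ENSMUSG00000104960, chromosome 3, 123507552 to 123508404, minus strand) stood at 11.2, 12.6 and 9.01 CPM in shControl and at 21.2, 23.5 and 19.7 CPM in shOpa1. Every shOpa1 library was well above every shControl library. Snhg8 rose 1.96-fold (95% interval 1.56 to 2.46), by 0.97 ± 0.140 (SE) on the log2 scale (adjusted p = 0.00178, edgeR quasi-likelihood test with Benjamini-Hochberg adjustment).

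Snhg15 (ENSMUSG00000085156, chromosome 11, 6525591 to 6528779, minus strand) was the least abundant member and had the highest fold change. Its values were 7.59, 8.11 and 5.52 CPM in shControl and 15.0, 17.5 and 10.8 CPM in shOpa1. The groups did not overlap, although the shOpa1 library numbered 3 was far below the other 2. Snhg15 rose 2.04-fold (95% interval 1.43 to 2.90), by 1.03 ± 0.216 (SE) on the log2 scale (adjusted p = 0.00870, edgeR quasi-likelihood test with Benjamini-Hochberg adjustment).

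Snhg12 (ENSMUSG00000086290, chromosome 4, 132308623 to 132311024, plus strand) carries snoRNAs of both classes, among them Snora44, Snora61 and Snord99. It stood at 17.8, 19.0 and 15.1 CPM in shControl and at 26.7, 26.8 and 24.2 CPM in shOpa1. The lowest shOpa1 library was above the highest shControl library. Snhg12 rose 1.5-fold (95% interval 1.26 to 1.78), by 0.58 ± 0.105 (SE) on the log2 scale (adjusted p = 0.00446, edgeR quasi-likelihood test with Benjamini-Hochberg adjustment).

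The libraries numbered 3 were low for most hosts in both groups. The shControl library 3 was the lowest of its group for 7 of 7 members and the shOpa1 library 3 for 5 of 7, all but Gas5 and Snhg5. The difference between groups was of similar size within each pair, with a median over the members of 0.65, 0.49 and 0.71 on the log2 scale for pairs 1, 2 and 3. Pairs 1 and 2 alone called 7 of 7 members higher, against 24.8% of all genes tested in those 4 libraries, while pair 3 holds 1 library per group and allows no test. In the mean profile of the 7 hosts, with each gene's mean removed, shControl libraries lay at -0.32, -0.18 and -0.54 and shOpa1 libraries at 0.37, 0.46 and 0.20 on the log2 scale.

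**Figure D3:**
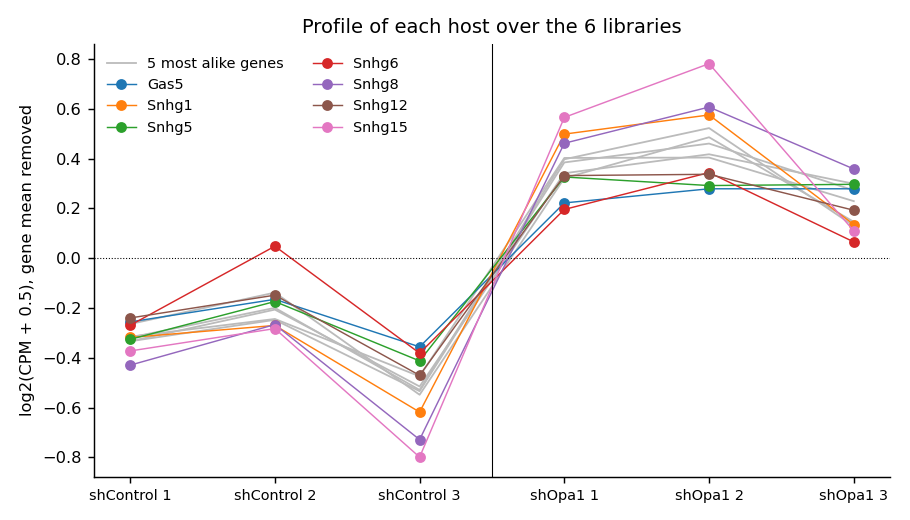
log2(CPM + 0.5) of each host in the 6 libraries after removing the gene's own mean, with the 5 genes of most similar profile in grey. Lines only join the points of a gene; shControl library 3 is the lowest point of all 7 hosts, and shOpa1 values are above 0 for all of them.

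Among 12001 genes, the 5 whose profile was nearest to that mean profile were Eif1ad, Mir670hg, Mrpl28, Ap3m1 and Mrpl4. The genes ranked had a mean of at least 50 counts, and members and genes with a predicted-gene symbol were left out. Nearness was the root mean square difference over the 6 libraries, which was 0.0395 for Eif1ad and 0.0475 for Mrpl4 on the log2 scale. Mrpl28 and Mrpl4 encode proteins of the mitochondrial ribosome, Ap3m1 a subunit of the AP-3 adaptor complex, and Mir670hg is a noncoding host of a microRNA. The log2 fold changes of the 5 lay between 0.64 (Mrpl28) and 0.75 (Eif1ad). Being chosen for this profile, they have fold changes near those of the members by selection.

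Levels between hosts can be compared only per length. Per kilobase of all annotated exons, the shControl level was highest for Gas5 at 23.6 ± 1.57 CPM per kilobase (SD, n = 3), followed by Snhg8 at 12.8 ± 2.12, Snhg6 at 11.9 ± 1.96, Snhg12 at 7.20 ± 0.821, Snhg1 at 5.45 ± 0.703, Snhg5 at 5.16 ± 0.446 and Snhg15 at 2.67 ± 0.515. Snhg8 overlapped Snhg6 over the libraries, and Snhg1 overlapped Snhg5, while the other neighbours in this order did not overlap. The exons counted include those of retained-intron models, which make up 20 of the 25 annotated transcripts of Gas5 and 14 of the 18 of Snhg1. The same CPM were also divided by the length of the spliced transcript alone. Gas5 remained the highest at 177 ± 11.8 and Snhg15 the lowest at 11.9 ± 2.31, and the other 5 lay between 24.1 (Snhg5) and 29.0 (Snhg6). These values still include reads on all annotated exons, so they are not levels of the spliced RNA. Spliced and intron-retaining RNA of 1 gene were not counted separately, so the rise of a host is that of both together.

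Reads were counted without regard to strand. A gene that overlaps or lies next to the host was therefore examined for Gas5, Snhg1, Snhg6, Snhg8 and Snhg12. No such gene was examined for Snhg5 or Snhg15, whose spans overlap only snoRNA genes. Slc3a2, the heavy chain of the cystine and large neutral amino acid transporters, starts 105 bases from Snhg1 on the opposite strand, and the exons of the 2 genes do not overlap. It rose from 216 ± 31.1 to 415 ± 29.2 CPM (SD, n = 3), a log2 fold change of 0.94 next to 0.83 for Snhg1 (adjusted p = 0.000812, edgeR quasi-likelihood test with Benjamini-Hochberg adjustment). Mcmdc2 shares 127 bases with Snhg6 on the opposite strand, or 11.1% of the exon bases of Snhg6. It held 20 to 94 counts per library and was called higher by 1.01 (adjusted p = 0.0449 in the same edgeR test).

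The other neighbours examined moved in either direction. Trnau1ap, which acts in selenocysteine incorporation and lies 738 bases beyond Snhg12 on the opposite strand, was called higher by 0.52. Zbtb37 overlaps the span of Gas5 on the opposite strand but shares 0 exon bases with it, and it was called lower, with a log2 fold change of -0.33. Prss12, which encodes neurotrypsin and ends 954 bases from Snhg8, was called lower as well, at -0.42. Gas5 and Snhg8 thus rose beside a neighbour that fell.

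Among other noncoding hosts Snhg10 and Snhg20 rose. Of 13 listed, 11 were matched in the table and 9 had enough counts to test, and 2 were called higher and 0 lower (18.9% of all genes were called higher). Their median log2 fold change was 0.37, within a range of 0.20 to 2.01. Snhg10 stood at 1.80, 2.84 and 2.52 CPM in shControl and at 8.83, 8.76 and 11.3 CPM in shOpa1, with no overlap. Its log2 fold change of 2.01 ± 0.203 (SE) was above that of every member (adjusted p = 0.000420, edgeR quasi-likelihood test with Benjamini-Hochberg adjustment). Snhg20 rose by 0.83 ± 0.131 (SE), from 11.9 ± 0.433 to 21.1 ± 3.56 CPM (SD, n = 3). With the replicate block 8 of the 9 were called higher (28.8% of all genes), with library totals in place of TMM 6 (27.1%) and in pairs 1 and 2 only 4 (24.8%).

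**Figure D4:**
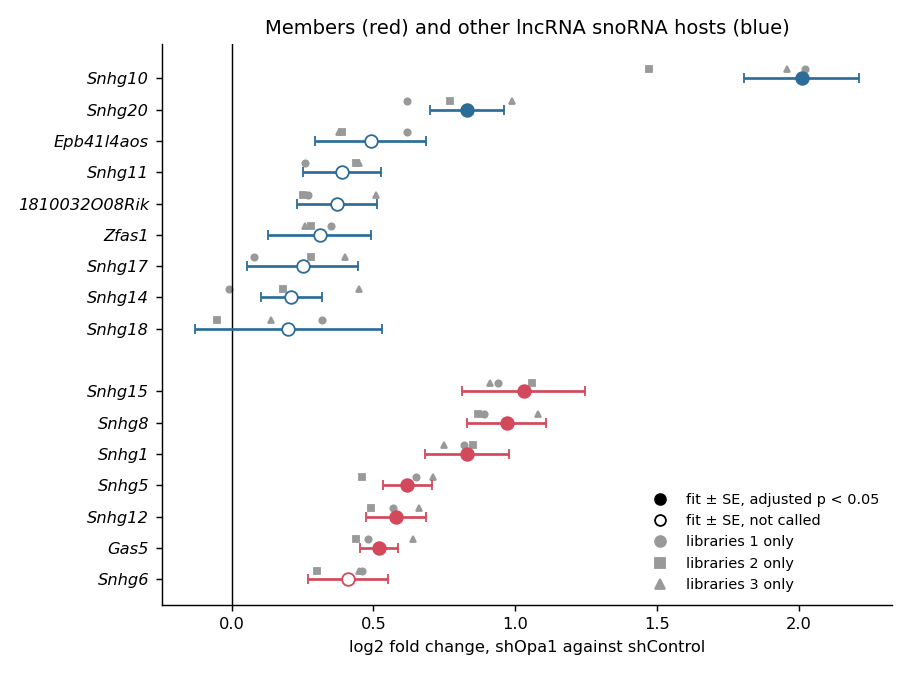
Log2 fold change with its standard error for the 7 members (red) and the 9 tested other noncoding hosts (blue); filled circles passed an adjusted p of 0.05 without the block. Small grey marks are the differences between libraries of the same number, which are above 0 in all 3 pairs for every member.

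A wider group, drawn up after values had been seen, held every other gene whose span on the same strand contains a snoRNA gene with a Snord, Snora or Scarna name. It shares genes with the other lists, among them Snhg10, Snhg14, Zfas1, Nop56, Nop58, Tpt1 and Rack1, so the lists are not separate. Of 84 tested, 30 were called higher and 7 lower, with a median log2 fold change of 0.20 (18.9% of all genes were higher and 20% lower). When the snoRNA genes were instead taken by their annotated type, predicted ones included, 281 hosts were tested, of which 76 or 27.0% were called higher and 55 lower, with a median of 0.09. The 69 protein-coding hosts among the 84 had 24 higher and 7 lower with a median of 0.16, and the 15 others 6 higher and 0 lower with a median of 0.69. Zbed3 rose by 1.15, Eif5, a factor of translation initiation, by 0.79 and Nop58 by 0.53. With the replicate block the 84 hosts had 47 higher and 11 lower (28.8% and 30.7% of all genes). Without shControl library 1 they had 19 higher, and the number of all genes called higher fell from 3130 to 2336.

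Of 21 NMD and exon junction factors 7 were called higher and 2 lower, with a median log2 fold change of 0.10. Together these 9 are a share near the 38.9% of all genes that were called, 18.9% higher and 20% lower. Smg1, the kinase that phosphorylates Upf1, rose by 0.42 (162 ± 5.24 to 216 ± 9.79 CPM, SD, n = 3) and its partner Smg8 by 0.39. The release factors went opposite ways, with Etf1 (eRF1) higher by 0.59 and Gspt1 (eRF3a) lower at -0.56. Upf1, the central helicase of the pathway, named here after its values were seen, had 79.2 CPM in shControl against 80.0 CPM in shOpa1 and was not called. Without shControl library 2, shOpa1 library 1 or shOpa1 library 2 the number higher was 3. In these fits the number of all genes called higher fell from 3130 to 2201, 2255 and 2168. With the replicate block 9 of the factors were higher and 6 lower, against 28.8% and 30.7% of all genes.

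Of 10 genes of decapping and 5′ to 3′ decay, which destroys transcripts after NMD has marked them, 4 were called higher and 2 lower, against 18.9% and 20% of all genes. The decapping activator Dcp1a rose by 0.96 (20.9 ± 0.578 to 40.5 ± 1.82 CPM, SD, n = 3), Patl1 by 0.67 and Lsm1 by 0.37. Dcp2, the decapping enzyme, was lower at -0.42. The number lower was 1 without shControl library 2, shOpa1 library 1 or shOpa1 library 2. In these fits the number of all genes called lower fell from 3312 to 2505, 2567 and 2421.

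Among 9 mRNAs known as NMD targets through an upstream reading frame or a junction after the stop, 6 were called higher and 1 lower, with a median log2 fold change of 0.93; of all genes 18.9% were higher and 20% lower. Chac1 rose by 1.96, Ddit3 by 1.6 and Atf4 by 0.93. At least these 3 genes also belong to the integrated stress response, in which they are induced by transcription or translation. Atf3 (2.4), Gadd45b (1.04) and Gadd45a (0.89) were the others called higher. Tbl2 was lower, at -0.93, and Nat9 (0.02) and Arc (0.56) were not called. Arc stood at 2.72, 2.17 and 21.3 CPM in shControl and at 9.28, 9.49 and 20 CPM in shOpa1. Its level in shControl library 3 was far above that in the other shControl libraries. In pairs 1 and 2 shOpa1 was the higher library for Arc, and in pair 3 slightly the lower. Which changes in these 9 mRNAs go with decay and which with stress induction was not tested.

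Proteins that assemble with snoRNAs were examined next, since a released snoRNA needs the proteins of its own class. Of 17 snoRNP core and assembly proteins 9 were called higher and 1 lower, with a median log2 fold change of 0.34, beside 18.9% of all genes higher and 20% lower. Nolc1, a nucleolar chaperone of snoRNPs, rose by 0.64, the ATPase Ruvbl2 of the assembly machinery by 0.62, the box C/D core protein Nop58 by 0.53 and the box H/ACA core protein Gar1 by 0.67. Nop58 is itself a snoRNA host. The core protein Snu13 was the 1 called lower, at -0.42, and the core protein Dkc1 (-0.24) was not called. With the replicate block 12 were higher and 3 lower, beside 28.8% and 30.7% of all genes.

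Of 16 regulators of translation 6 were called higher and 4 lower, with a median log2 fold change of 0.11. Over all genes 38.9% were called, 18.9% higher and 20% lower, so the lower calls are near that share. Eif4ebp1, an inhibitor of cap-dependent initiation, rose by 2.43, from 7.70 ± 1.74 to 41.5 ± 5.75 CPM (SD, n = 3). Ppp1r15a, the stress-induced subunit that directs dephosphorylation of eIF2α, rose by 1.63 and Eif4ebp2 by 0.49. Pdcd4, an inhibitor of the helicase eIF4A, was lower at -1.30. The number lower was 2 without shControl library 2, shControl library 3, shOpa1 library 1 or shOpa1 library 2. In these fits the number of all genes called lower fell from 3312 to 2505, 3115, 2567 and 2421.

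A further list held mRNAs classed as 5′TOP outside the ribosomal proteins, whose start sequences were not examined here. Of 16, 7 were called higher and 2 lower, with a median log2 fold change of 0.13, where 18.9% of all genes were higher and 20% lower. Npm1, nucleophosmin, rose by 0.49, Tpt1 by 0.39 and Eif3h by 0.33, while the elongation factor subunit Eef1g was lower at -0.59. With library totals in place of TMM scaling 12 were called higher, and 27.1% of all genes.

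**Figure D5:**
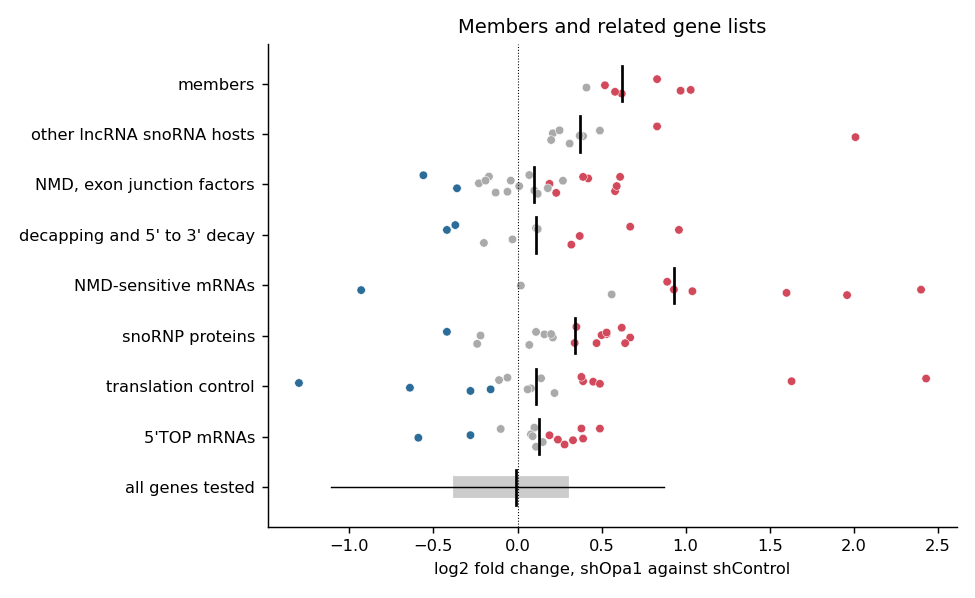
Log2 fold change of each tested gene in the members and 7 related lists, red where called higher, blue where called lower and grey where not called, with the median as a black bar. The bottom row gives all tested genes, with the box from -0.38 to 0.30 (25th to 75th percentile) and the line from -1.11 to 0.87 (5th to 95th percentile); the members lie between 0.41 and 1.03.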

How the data were processed

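The authors deposited raw counts per gene. Per the file headers these came from featureCounts 1.6.0, run on read pairs with Ensembl 99 gene models (GRCm38) and with no strand option. HISAT2, DESeq2 and mm10 appear in the submitters' processing notes. Per the labels' protocols the kit was TruSeq Stranded mRNA. The authors' deposited table of their comparison gives log2 fold changes with standard errors, and p-values adjusted by them.

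Counts were scaled by TMM and tested with edgeR 4.0.16 (R 4.3.3), with its default low-count filter, robust quasi-likelihood dispersion and group as the only term, adjusted over all 16562 tested genes by Benjamini-Hochberg at 0.05. A standard error is the log2 fold change over the root of its F statistic. Alternatives used DESeq2 1.42.0 and limma 3.58.1. Pair differences and profiles used log2(CPM + 0.5). Fits were tested on simulated data. Symbols came from a reference table for 55144 of 55471 identifiers, and 0 rows lacked a gene. Library totals were 24676709 to 32961580 counts. Libraries of 1 group differed beyond sampling noise (chi-square per degree of freedom 6.69 to 34.1), and p-values reflect only the variation among these 6 libraries, which the labels call biological replicates.

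Groups and numbers came from the labels. Deviations from the group mean correlated at 0.595, 0.608 and 0.714 between libraries sharing a number, and each library was most like its namesake; numbers were therefore treated as pairs, and the main fit has no block. Promoters came from RefSeq (GRCm38.p6), structures and frames from GENCODE M21 (GRCm38), read with Python 3.11.15.

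The members and lists were chosen with earlier results of these data known. Named genes were Opa1, the 7 members, up to 4 called genes of smallest p per list and the 5 genes of nearest profile. Neighbours of Gas5, Snhg1, Snhg6, Snhg8 and Snhg12 were also named. Upf1, Atf3, Gadd45a, Gadd45b, Nat9, Arc, Snu13, Dkc1 and the wider host group were added after values were seen. Of 13 other hosts listed, 11 matched a row.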

Additional observations from a re-analysis of the deposited data

How the results depend on the processing

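Over 16 alternatives the 7 members gave 112 recomputed log2 fold changes, of which 112 kept their direction and 103 their side of the threshold. The 9 that did not were all of Snhg6, which passed an adjusted p of 0.05 with a log2 fold change of 0.41 with the replicate block, 0.41 with replicate 3 as a second batch, 0.42 with DESeq2, 0.41 with limma-voom, 0.53 with library totals in place of TMM, 0.41 without a low-count filter and 0.39 in pairs 1 and 2 only. Leaving out 1 library gave 0.31 to 0.54 for Snhg6, with adjusted p from 0.0264 without shControl library 2 to 0.171 without shOpa1 library 2. The cause was not tested. Members called numbered 6 or 7 in every alternative, and genes called in the lists 43 to 74 against 53. The number of all genes called ran from 4589 to 9851 against 6442. The replicate block called 9851 genes against 6442, and changed the call of no member but Snhg6. Library totals in place of TMM moved the median of all genes to 0.114 and the share of higher calls from 48.6 to 64.2%. The members' log2 fold changes there all remained above that median. A change of scaling shifts all genes by nearly the same amount, so this was largely fixed in advance. The lowest member, Snhg15, held as few as 149 counts in a library. The standard error of its log2 fold change was 0.216 without the block and 0.0891 with it.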
